A study of Mus musculus with 33 samples.

Results

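The promoter H3K27ac peaks of pro-B cells were the acetylated regions of 1 ChIP-seq library that lay within 1000 bp of the annotated start of a protein-coding gene and were not among the longest peaks of the list. The peaks were thus chosen by their measured presence and length in this same library, and neither their presence at gene starts nor the length limit is a finding. Of the 17935 peaks deposited for this library on the mm9 assembly, 8510 (47.4%) met both conditions. The length limit was the 95th percentile of all peaks, 7800.3 bp, and gene starts were the strand-aware starts of 22367 protein-coding gene records of GENCODE vM1. Of the other peaks, 8528 were shorter than the limit and lay farther from any such start (promoter-distant peaks), and 897 were at or above the limit (longest peaks). The library was made from pro-B cells of Rag1(Cre/Cre) mice on the C57BL/6 background, in which Cre had been placed into the Rag1 gene, and the cells were sorted directly from bone marrow. The study sorted pro-B cells by flow cytometry on surface markers of the B lineage and of the progenitor stage. The age of the mice behind this library was not given in the sources used here, and neither was a statement on whether animals were pooled. The series, which examined how the cohesin-release factor Wapl and chromatin loops shape immunoglobulin gene recombination, also holds 28 VDJ-seq and 4 Hi-C samples that were not used here. There was only 1 library, so no replicate error could be given, and every share and length below describes this library. The deposited list gives a score of 0 for every peak and no read counts, so that the height of a peak and the depth of the library are unknown.

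H3K27ac is an acetyl mark on the tail of histone H3 that is placed by the acetyltransferases Ep300 and Crebbp and is known to lie on nucleosomes beside active promoters and enhancers. At promoters of transcribed genes it typically flanks the start site, whereas genes silenced by Polycomb carry trimethylation of the same lysine in place of the acetyl group. Pro-B cells are the bone marrow progenitors that rearrange their immunoglobulin heavy-chain genes under the control of the transcription factors Pax5, Ebf1 and Tcf3 and grow in response to IL-7. In this library both Rag1 copies carried Cre, and whether these cells rearranged their genes was not examined.

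The label of the library was compared with marker genes before any other result. Over all protein-coding genes, 43.5% carried a promoter peak and 2.31% only a longest peak. Of 39 early B cell genes in the annotation, 20 (51.3%) carried a promoter peak, near this background, and 9 only a longest peak, and these included Cd79a, Pax5, Ebf1, Rag1, Rag2, Dntt, Il7r and Kit. None of 10 natural killer cell genes, 2 of 19 T cell genes and 2 of 18 myeloid genes carried a promoter peak, and none of these 3 lists had a longest peak. Peaks were also found at genes of red blood cells. Of 16 erythroid and megakaryocyte genes, 8 (50%, near the background) carried a promoter peak, among them those for the globins Hbb-b1, Hbb-b2, Hba-a1 and Hba-a2, the haem synthesis enzyme Alas2 and the erythroid transcription factor Klf1. A further 3, among them Slc4a1 and Tal1, lay at longest peaks. In a second red cell list, which was drawn up after this was seen, 8 of 24 genes carried a promoter peak, a share below the 43.5% of all genes, and 13 only a longest peak, which 2.31% of all genes had. Red cells are not part of the stated B lineage gate, and a single library cannot show in which cells a peak arose, so the part that such cells have in the results below was not tested. With no other library at hand, each result that concerns red cell genes is named as such.

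Promoter sequences are shown for genes that differ in base composition and in the presence of a peak. Each is the 200 bp just before the annotated start on mm9, read 5′ to 3′ along the gene's strand, and none overlaps an annotated exon. Capitals mark matches, on either strand, to the GC box, NF-Y, ETS, octamer and GATA motifs, whose letters are given beside their shares of all starts. The first pair are promoters of cohesin genes with a promoter peak, the second pair are promoters of early B cell genes with a promoter peak, and the last pair contrast a red cell promoter with a peak and a developmental promoter without one.
Wapal, chr14:35486914-35487113, plus strand: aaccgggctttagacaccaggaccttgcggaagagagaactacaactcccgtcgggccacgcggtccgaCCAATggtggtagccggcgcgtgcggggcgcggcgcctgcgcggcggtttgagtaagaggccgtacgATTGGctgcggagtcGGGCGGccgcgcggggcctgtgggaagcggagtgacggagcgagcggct
Nipbl, chr15:8394464-8394663, minus strand: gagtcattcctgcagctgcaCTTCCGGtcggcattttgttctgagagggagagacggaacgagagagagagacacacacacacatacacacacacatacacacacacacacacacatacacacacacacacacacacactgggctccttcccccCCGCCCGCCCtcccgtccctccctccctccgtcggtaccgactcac
Cd79a, chr7:25682200-25682399, plus strand: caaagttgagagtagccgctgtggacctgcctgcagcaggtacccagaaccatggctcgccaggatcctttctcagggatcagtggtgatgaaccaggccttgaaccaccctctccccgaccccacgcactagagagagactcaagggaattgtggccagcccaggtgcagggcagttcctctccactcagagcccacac
Rag2, chr2:101464675-101464874, plus strand: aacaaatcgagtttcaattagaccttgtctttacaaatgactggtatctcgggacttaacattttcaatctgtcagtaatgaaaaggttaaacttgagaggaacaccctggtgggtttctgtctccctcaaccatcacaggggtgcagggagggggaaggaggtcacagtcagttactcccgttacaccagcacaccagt
Hbb-b1, chr7:110976611-110976810, minus strand: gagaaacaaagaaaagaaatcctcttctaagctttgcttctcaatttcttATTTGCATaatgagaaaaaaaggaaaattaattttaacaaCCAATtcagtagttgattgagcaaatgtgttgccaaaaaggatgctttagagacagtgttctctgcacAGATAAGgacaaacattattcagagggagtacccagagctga
Hoxd13, chr2:74506167-74506366, plus strand: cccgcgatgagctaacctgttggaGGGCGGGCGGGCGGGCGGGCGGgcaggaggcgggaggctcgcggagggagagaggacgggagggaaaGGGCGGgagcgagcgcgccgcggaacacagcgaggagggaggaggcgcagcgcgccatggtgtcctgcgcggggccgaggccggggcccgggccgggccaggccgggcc

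In these 200 bp the ratio of observed to expected CpG dinucleotides was 1.26 for Wapal and 0.71 for Nipbl, but 0.23 for Cd79a and 0.28 for Rag2. The Hbb-b1 stretch held no CpG at all. The Hoxd13 stretch had a ratio of 1 and 6 GC box matches, some of them overlapping each other, yet no listed peak came within 1000 bp of its start. These promoters were picked to show such contrasts and do not stand for all starts. The Wapal stretch held a GC box that began 49 bases before the start and NF-Y boxes at 131 and 64 bases. In the Nipbl stretch the ETS site began 180 bases and the GC boxes 46 and 42 bases before the start. The octamer, NF-Y box and GATA site of Hbb-b1 began at 150, 110 and 42 bases. No match to any of the searched motifs was found in the stretches of Cd79a and Rag2.

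The promoter peaks differed little in typical length from the distant ones. Their median length was 2368 bp, with quartiles of 1704 and 3365 bp and a range from 279 to 7793 bp. The promoter-distant peaks had a median of 2265 bp with quartiles of 1483 and 3505 bp, so that the medians differed little and the distant peaks were spread more widely at both ends. Summed over the genome, the promoter peaks covered 22.96 Mb, or 41.2% of all acetylated sequence, next to 22.85 Mb for the distant peaks and 9.92 Mb for the longest peaks. The limits of the definition cut through a continuum. The peaks just below the length limit lay at Pip5k1c (7793 bp), Ublcp1 (7793 bp) and Tgm2 (7788 bp), whereas peaks at Hcfc1 (7801 bp), Tmem206 (7804 bp) and Clint1 (7814 bp) were just above it. At the distance limit, peaks were included at 1000 bp from Arhgap18 and at 995 bp from Pik3cd and Gm10842, and left out at 1008 bp from Taf4a, 1009 bp from Fuca1 and 1011 bp from Angpt2, although Taf4a had another peak over its start. Of the 897 longest peaks, 397 (44.3%) also lay at gene starts and were not counted as promoter peaks.

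Almost all promoter peaks lay across the gene start rather than beside it. A start was covered by 8100 of the 8510 peaks (95.2%), where the definition asked only for a distance of 1000 bp. Distance was part of the definition, and the share expected for peaks of these lengths was not computed. Only 1 start was in reach of 7296 peaks (85.7%), 2 starts of 1182 peaks and 3 starts of 32 peaks. Seen from the genes, 9637 gene records had a single promoter peak, 58 had 2 and 1 had 3. Of the peaks in reach of a single start, 6905 covered it, and 391 did not. Among those 391, the peak lay on the gene's side of the start in 287 and upstream in 104, at a median distance of 203 bp, and these peaks were shorter, with a median of 1365 bp. Ebf1, which encodes a transcription factor needed for B cell commitment, was of this kind, with a peak of 4322 bp that began 615 bp into the gene.

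Measured from the annotated gene start, the acetylated region reached farther into the gene than away from it. Some genes have other annotated transcript starts, and the extents were not measured from those. In the 6905 peaks that covered a single start, the median extent was 1412 bp into the gene (quartiles 1005 and 2045 bp) and 838 bp upstream (quartiles 524 and 1272 bp). The downstream arm was the longer one in 5513 of these peaks (79.8%). Over all 9696 starts with a promoter peak, the position 500 bp into the gene was under a promoter peak at 95.4% of starts and the position 500 bp upstream at 78.4%. At 1000 bp the share was 74.1% into the gene and 46.5% upstream, so that at these distances the upstream side was under a promoter peak at fewer starts. At 5000 bp the shares were 2.8% into the gene and 3.3% upstream.

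**Figure D1:**
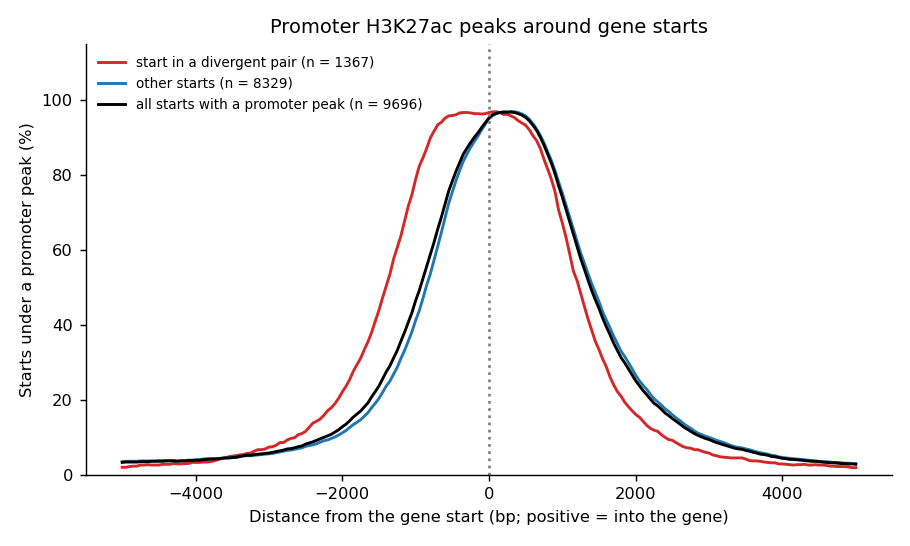
Share of gene starts (y axis, percent) whose promoter peak covers each distance from the start (x axis, bp, positive into the gene), for all 9696 starts with a promoter peak, the 1367 in divergent pairs and the 8329 others. The black and blue curves lean into the gene, and the red curve of divergent pairs extends upstream, with 78.9% of starts covered at 1000 bp upstream against 41.2% of the other starts.

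Divergent gene pairs were the exception to this lean. A divergent pair was taken as 2 protein-coding genes on opposite strands whose starts lay within 1000 bp of each other and pointed away from each other, and the annotation held 808 such pairs. In 657 pairs (81.3%) 1 promoter peak covered both starts, and in 85 pairs (10.5%) there was no peak at either start. Because the starts of a pair lie close together, a peak at one was nearly always in reach of the other, and the pair should be read as 1 promoter. Counted by starts, 1367 of 1599 starts in divergent pairs (85.5%) and 8329 of 20768 other starts (40.1%) had a promoter peak, beside 43.3% of all starts. The 680 peaks shared by a divergent pair had a median length of 2686 bp. The position 1000 bp upstream, which at a divergent pair lies at or beyond the partner's start, was covered at 78.9% of starts in divergent pairs and at 41.2% of the others. The peaks with the most starts in reach had 3, as at Rabgap1, Zbtb26 and Zbtb6, which shared a peak of 2030 bp, and at Cdnf and Hspa14, with a peak of 3218 bp.

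A promoter peak was present at 9664 of 22238 protein-coding genes (43.5%), counted by symbol. Another 2.31% of genes had only a longest peak, and 45.8% had a peak of either kind. These shares are the background against which each gene list below should be read. The lists were chosen with results of these data already known, and their genes are counted, not tested. Lists of ribosomal, spliceosome, respiratory and general transcription factor genes lay far above the background, and lists of genes of other tissues lay at or near 0. The early B cell and the erythroid and megakaryocyte lists lay near the background for promoter peaks, at 51.3% and 50%, and both also had longest peaks.

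**Figure D2:**
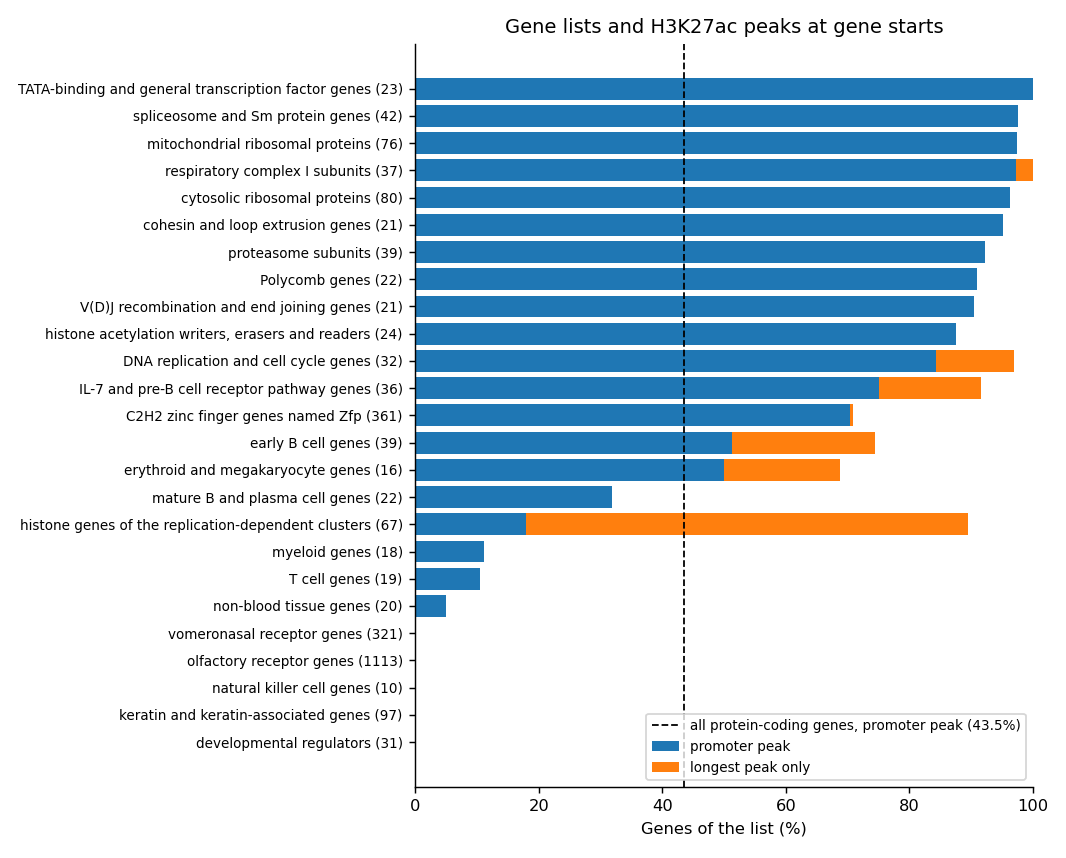
Share of each gene list (x axis, percent of the list's genes, whose number is in parentheses) with a promoter peak (blue) or with only a longest peak (orange), and the 43.5% of all protein-coding genes with a promoter peak (dashed line). General transcription factors stand at 23 of 23 genes, early B cell genes at 20 of 39 with 9 more at longest peaks, and olfactory receptors at 0 of 1113.

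Of the 39 early B cell genes, 20 (51.3%, background 43.5%) carried a promoter peak, 9 only a longest peak and 10 neither. The genes for the transcription factors Pax5, which fixes B cell identity, Foxo1, which drives expression of the recombinase, and Pou2af1, a coactivator of octamer factors, had promoter peaks of 3794, 3980 and 4551 bp. The surface receptor genes ranged more widely. Il7r, the receptor for the growth factor IL-7, had a peak of 3131 bp, Kit, the receptor for stem cell factor, a peak of 2633 bp, and Cd79a, a signalling chain of the B cell receptor, a peak of 2094 bp. Rag1 and Rag2, which together form the V(D)J recombinase, had separate peaks of 2507 and 3820 bp, and the Rag1 gene carried the Cre allele in these mice. The longest promoter peaks of the list were those of the kinase gene Btk (7254 bp) and of Lef1 (7042 bp), and the shortest was that of Plcg2 (1702 bp). The 9 genes at longest peaks were Bcl11a, Blnk, Cd24a, Igll1, Ikzf1, Runx1, Tcf3, Vpreb1 and Vpreb3. Igll1 and Vpreb1, which encode the surrogate light chain, lay under the same longest peak of 10994 bp, whereas Vpreb2 had a promoter peak of 4100 bp. Vpreb1 and Vpreb2 are near-identical copies, and how reads shared by copies were placed was not given in the sources used here.

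The 10 early B cell genes without a peak at the annotated start were Blk, Cd22, Cd72, Cd79b, Erg, Ets1, Ikzf3, Irf4, Irf8 and Spib. Cd79b, the partner chain of Cd79a, had its nearest peak 4731 bp away. Irf4 and Irf8, transcription factors of the pre-B and later stages, had theirs at 36300 and 8605 bp. For Ets1 and Erg the annotated gene start was not the acetylated one, since each had a peak at another annotated transcript start. Of 22 mature B and plasma cell genes, 7 (31.8%, background 43.5%) carried a promoter peak and none a longest peak. These were Bcl6 (5966 bp), Xbp1 (3498 bp), Sdc1, H2-Ab1, Prdm1, S1pr2 and Cd38, and the peaks of Sdc1, H2-Ab1 and Prdm1 lay beside the start, at 17, 968 and 658 bp. The class II genes H2-Aa and H2-Eb1 and their activator Ciita had no peak in reach.

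The IL-7 and pre-B cell receptor pathway, which shares genes with the early B cell list, had promoter peaks at 27 of 36 genes (75%, background 43.5%) and longest peaks at another 6. From the receptor inwards, Il7r and Il2rg, the common cytokine receptor chain, had promoter peaks of 3131 and 1918 bp. Their kinases Jak1 and Jak3 had peaks of 3227 and 2318 bp, and the transcription factor genes Stat5a and Stat5b had peaks of 2284 and 4297 bp, of which that of Stat5a lay 579 bp from the start. Among genes known as STAT5 targets or feedback inhibitors, Pim1 had a peak of 6598 bp, Mcl1 of 6279 bp, Ccnd2 of 4457 bp, Cish of 4463 bp, Socs1 of 2600 bp and Bcl2 of 1550 bp. The genes at longest peaks included Foxo3 (20971 bp), the cell cycle inhibitor gene Cdkn1b (15155 bp) and the lipid phosphatase gene Inpp5d (13601 bp), whose enzyme opposes PI3K. Blk, Cd79b and Mycn had no peak in reach. Myc, the relative of Mycn, had a promoter peak of 5106 bp.

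Nearly all genes of the cohesin and loop extrusion machinery, the subject of the series, carried promoter peaks (20 of 21, 95.2%, background 43.5%). The list also held Smc2, Smc4, Ncapg, Ncaph, Smc5 and Smc6, which encode subunits of complexes other than cohesin. Wapal, the annotation's name for Wapl, which releases cohesin from DNA, had a peak of 4240 bp at chr14:35485630-35489869 that covered its start at position 35487114. The peak of Nipbl, which encodes the cohesin loader, was the longest of the list, at 6815 bp, and that of Mau2, the loader's partner, was 3473 bp long. The ring subunit genes Smc1a, Smc3 and Rad21 had peaks of 3158, 3628 and 3763 bp. The loop anchor factor gene Ctcf had a peak of 3664 bp, and Pds5a and Pds5b, whose products act with Wapl, had peaks of 4716 and 2652 bp. All of these peaks lay over the start. Of the alternative subunits Stag2 and Stag1, Stag2 had a peak of 5976 bp, whereas the annotated start of Stag1 was 43807 bp from the nearest peak, although another of its transcript starts had one. The median of the list was 3473 bp, and 16 of the 20 peaks exceeded the median of all promoter peaks.

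Of 21 V(D)J recombination and end joining genes, 19 (90.5%) carried a promoter peak. These included Dntt, which encodes the polymerase that adds untemplated bases (4151 bp), Prkdc and Dclre1c, the kinase and the nuclease that open the hairpin ends (2964 and 2803 bp), Lig4 and Xrcc4, which seal the break (4917 and 2134 bp), and Xrcc5, a Ku subunit (1819 bp). Hmgb2, which encodes a cofactor of the recombinase, had the longest peak of the list at 7465 bp. The exceptions were Nhej1, with the nearest peak at 27305 bp, and Xrcc6, the other Ku subunit, with a peak 1270 bp from the annotated start and in reach of another of its transcript starts.

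Genes that write, remove or read chromatin marks were widely marked. Among histone acetylation genes, 21 of 24 (87.5%) had a promoter peak, including the genes for the writers Ep300 (4293 bp) and Crebbp (2098 bp) and the reader Brd2 (6900 bp). Of the deacetylases, Hdac1, Hdac2 and Hdac3 had peaks of 2918, 2653 and 2082 bp, but Hdac4 and Hdac9 had none, with the nearest peaks at 247124 and 509550 bp. Brd3 was the remaining exception, and it had a peak at another transcript start. Of 22 Polycomb genes, 20 (90.9%) carried a promoter peak, with the methyltransferase gene Ezh2 at 6101 bp, its cofactor Jarid2 at 6292 bp and its partners Suz12 and Eed at 3859 and 3022 bp. Cbx7 and Pcgf2 were without one, although Cbx7 had a peak at another transcript start. The general transcription factor list was complete, with promoter peaks at 23 of 23 genes from Ercc2 (1459 bp) to Gtf2e2 (7704 bp), and Tbp, the TATA-binding protein itself, at 4026 bp.

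Genes of basic cell functions came close to saturation. Promoter peaks were found at 77 of 80 cytosolic ribosomal protein genes (96.2%), 74 of 76 mitochondrial ribosomal protein genes (97.4%), 41 of 42 spliceosome and Sm protein genes (97.6%), 36 of 37 complex I subunit genes (97.3%) and 36 of 39 proteasome genes (92.3%). The exceptions were few and could be named. The cytosolic ribosomal protein genes without a peak were the paralogues Rpl10l, Rpl39l and Rpl3l, which are known for expression in testis or muscle. The proteasome genes without one were Psma8 and Psmb11, known from testis and thymus, and Psma6, which had a peak at another transcript start. Mrpl33 and Mrps24 likewise had a peak at another transcript start, and Snrpn, an imprinted gene used in brain, had its nearest peak at 799075 bp. Ndufb9, the one complex I gene without a promoter peak, lay under a longest peak of 11320 bp.

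DNA replication and cell cycle genes carried promoter peaks at 27 of 32 genes (84.4%) and longest peaks at 4, Cdc6, E2f2, Mcm2 and Mki67. Helicase subunit genes of the list with promoter peaks ran from Mcm7 (2612 bp) to Mcm6 (4662 bp). The polymerase clamp gene Pcna had a peak of 5286 bp and the mitotic kinase genes Cdk1 and Plk1 had peaks of 3627 and 3701 bp. The D-type cyclins differed, with peaks of 4457 and 5679 bp at Ccnd2 and Ccnd3 and the nearest peak to Ccnd1 at 23622 bp. Replication-dependent histone genes, core and linker histones together, sit in dense clusters, and 12 of 67 (17.9%) had a promoter peak while 48 others had only a longest peak. One of those longest peaks, of 33130 bp, covered the starts of the linker histone genes Hist1h1a and Hist1h1c. The linker histone gene Hist1h1e and the core histone gene Hist1h2be shared 1 promoter peak of 5826 bp. Zinc finger genes named Zfp, many of which encode repressors of transposable elements, had promoter peaks at 254 of 361 (70.4%) and these were short, with a median of 2040 bp. Of the 5 shortest promoter peaks with a single start, 3 lay at Zfp genes, Zfp879 (346 bp), Zfp938 (374 bp) and Zfp2 (410 bp).

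Genes of other lineages were mostly without promoter peaks, apart from the red cell genes. The T cell genes with one were Tcf7 and Cd5, with peaks of 717 and 821 bp, both below the lower quartile of all promoter peaks. Cd3d, Cd3e, Cd3g, Cd4 and Cd8a, which define T cells, had none. The myeloid genes with one were Cebpa and Cebpb, and the defining granulocyte and monocyte genes Mpo, Elane, Csf1r and Itgam had none. Among red cell genes, the master regulator Klf1 had a peak of 6496 bp, Alas2 of 6562 bp and Epor, the erythropoietin receptor, of 3745 bp. The globin genes Hbb-b1 and Hbb-b2 had peaks of 2953 and 2722 bp over their starts, and Hba-a1 and Hba-a2 had promoter peaks 86 and 669 bp from theirs. Hba-a2 also had a longest peak of 11847 bp nearer to its start, at 323 bp. The members of each of these globin pairs are close copies, so reads may be shared within a pair. Gp9, a platelet gene, also had a promoter peak, of 6142 bp, but the megakaryocyte genes Pf4, Itga2b and Gp1bb had none. In all, 5 of the 16 erythroid and megakaryocyte genes had no peak at the annotated start, and 1 of these had one at another transcript start. In the second red cell list the promoter peaks included those of the transferrin receptor Tfrc (5960 bp), the spectrin gene Spnb1 (5736 bp) and the Rhesus-associated gene Rhag (3693 bp), while the carbonic anhydrase gene Car2 (17665 bp) and Hemgn (17539 bp) had longest peaks. Of the 24 genes of that list, 3 had no peak of either kind at the start. Of 20 genes of non-blood tissues, only Pecam1, which blood cells also express, had a promoter peak.

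Developmental regulators were without peaks at their starts. None of 31 had a promoter or longest peak at its start, beside 45.8% of all protein-coding genes with either. Among them were Pax6, an eye and brain factor and a relative of Pax5, with its nearest peak at 99550 bp, Sox2 at 567745 bp, and the homeobox genes Hoxa13 at 20277 bp and Hoxd13 at 87992 bp. The large receptor and structural families were also empty, with promoter peaks at none of 1113 olfactory receptor, 321 vomeronasal receptor and 97 keratin genes and no longest peak at any of them. Among groups of genes that share a symbol stem, which were looked at after the data were seen, all 30 Vps genes of vesicle sorting and all 20 Cep genes of the centrosome had a promoter peak, as did 29 of 30 Med genes of the Mediator complex, while none of 43 Col, 19 Wnt or 21 Pcdhb genes had one.

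Promoter peaks differed in length between lists. Over all 9664 genes with one, 51.8% had a peak above the median of 2368 bp. This held for 17 of 20 early B cell genes, with a list median of 4040 bp, and for 7 of 8 erythroid and megakaryocyte genes, with a list median of 4013 bp. The IL-7 and pre-B cell receptor pathway had a median of 4064 bp, and replication and cell cycle genes a median of 3515 bp. The highest list median was that of the replication-dependent histone genes, at 5279 bp with 11 of 12 above the overall median. The lowest list medians were those of the 2 T cell genes (769 bp) and of mature B and plasma cell genes (1414 bp, 2 of 7 above the overall median). Mitochondrial ribosomal protein genes had a median of 2038 bp with 24 of 74 above the overall median, and complex I genes a median of 2222 bp with 14 of 36. Cytosolic ribosomal protein genes, at 2988 bp and 59 of 77, were longer than these. The upper limit on length left out the longest peaks, which were the only peaks at 9 genes of the early B cell list and at none of the ribosomal lists, so the medians are lower than those of all peaks at the listed starts where longest peaks were left out.

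**Figure D3:**
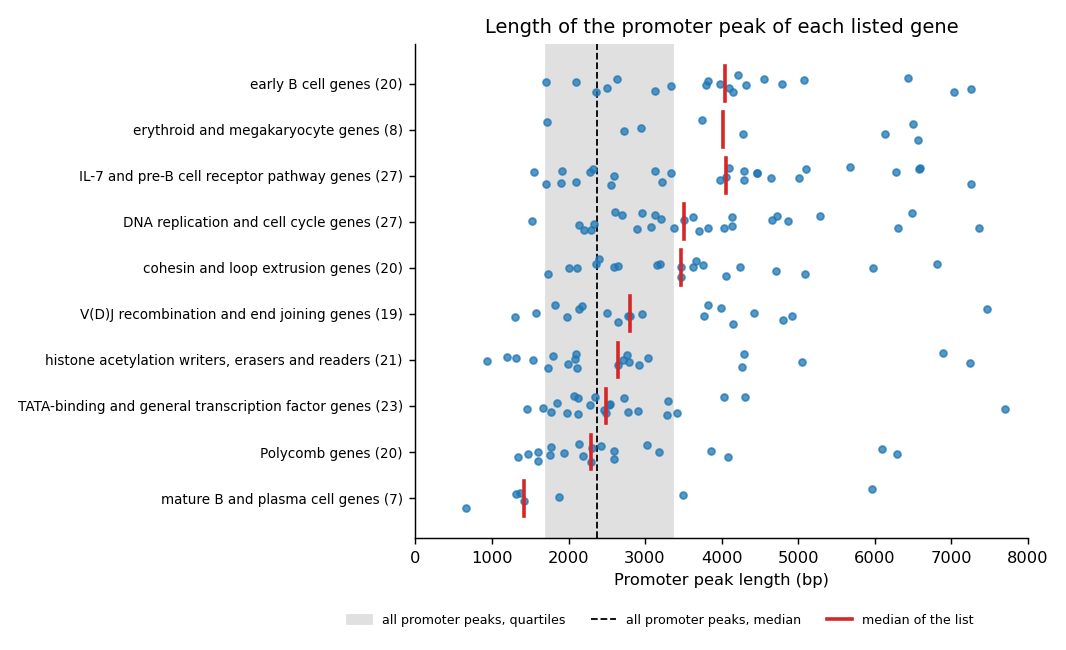
Length of the promoter peak of each gene (points, x axis in bp) in 10 gene lists with the number of genes in parentheses, the median of each list (red) and the median and quartiles of all promoter peaks (dashed line and grey band). Early B cell genes center on 4040 bp and mature B and plasma cell genes on 1414 bp, against 2368 bp for all promoter peaks, and single genes overlap widely between lists.

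Base composition, which the definition did not use, separated starts with and without a promoter peak. CpG content was measured from 250 bp before to 50 bp after each start as the number of CpG dinucleotides over that expected from the C and G content. Starts with too many unknown bases were left out. The median ratio was 0.79 (quartiles 0.62 and 0.93) at 9695 starts with a promoter peak and 0.27 (quartiles 0.13 and 0.51) at 12151 starts with no peak. Starts that had only a longest peak were near the former, at 0.70. The GC content was 60.7% and 50%, respectively. The starts were then divided into 3 equal classes of low, middle and high CpG content, with bounds at 0.31 and 0.73. A promoter peak was present at 658 of 7453 starts in the low class (8.83%), at 3222 of 7455 in the middle class (43.2%) and at 5815 of 7454 in the high class (78%). High CpG content was thus common but not general among promoter peaks, and 1405 CpG-rich starts had no peak. Within whole peaks the median ratio was 0.60 in promoter peaks, 0.23 in distant peaks and 0.24 in the longest peaks.

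**Figure D4:**
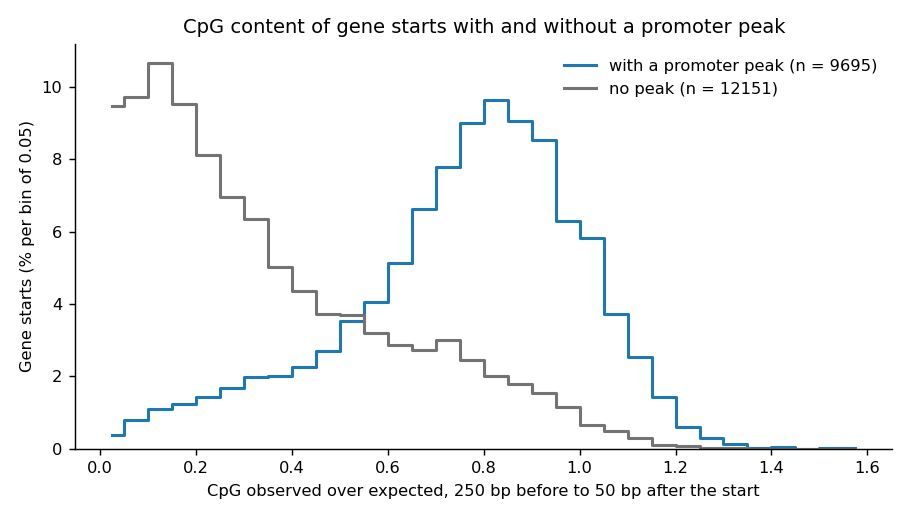
Distribution of the CpG observed over expected ratio (x axis) around gene starts with a promoter peak (blue, n = 9695) and with no peak (grey, n = 12151), as percent of starts per bin (y axis). The distributions overlap, with medians of 0.79 and 0.27.

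The lists occupied different ends of this scale. All 8 erythroid and megakaryocyte starts with a promoter peak were in the low class, where 8.83% of all starts had one. Early B cell starts with a promoter peak were spread over the classes, with 8 low, 7 middle and 6 high. Rag1 had a ratio of 0.11, Btk of 0.21 and Il7r of 0.06. In contrast, 17 of the 20 cohesin and loop extrusion starts with a promoter peak and 22 of the 24 starts of general transcription factors were in the high class. The developmental regulators, none of which had a peak, were not poor in CpG, with 17 of 31 starts in the middle and 11 in the high class. The olfactory receptors were, with 1016 of 1113 in the low class. Length did not follow the classes in 1 direction, since the median promoter peak was 2636 bp in the low class, 2166 bp in the middle class and 2542 bp in the high class.

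Short sequence motifs at the same positions differed in frequency between starts with and without a promoter peak. Each was searched on both strands, and a match is a description of the sequence that does not show binding. The GC box of Sp and Klf factors, searched as GGGCGG, was present in 65.3% of starts with a promoter peak and in 25.3% of those with no peak, beside 43.4% of all starts. The ETS site, searched as CCGGAAG, was present in 20.8% and 2.81%, beside 10.8% of all starts. The TATA box, searched as TATAAA, went the other way, with 6.18% and 19.3%, beside 13.4% of all starts. The box bound by NF-Y, searched as CCAAT, was present at 38.5% of starts with a promoter peak and 37.3% of those with no peak, beside 37.9% of all starts. This small difference pooled opposite ones, with 33.6% against 38.9% in the low CpG class, 41.3% against 37% in the middle class and 37.6% against 30.8% in the high class. Within 500 bp on each side of the start the NF-Y box was less common with a promoter peak, at 66% against 73.9%.

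The same motifs were then compared within the classes of CpG content. These classes are wide, and neither CpG nor GC content was matched within them. The letters searched for the GC box, ETS, YY1 and NRF1 sites themselves contain a CpG. The GC box stood at 57.9% with a promoter peak against 38.1% without in the middle class and at 17.5% against 7.03% in the low class, but at 74.8% against 76% in the high class. Within 500 bp on each side of the start the GC box in the high class stood at 92.9% against 89.6%. The ETS site stood at 25.1% and 5.27% in the high class, 16.4% and 4.49% in the middle class and 3.65% and 1.3% in the low class. The YY1 site, searched as AAGATGGCG and present at 1.84% of all starts, was found at 347 of 9695 starts with a promoter peak and 52 of 12151 with no peak, and in the high class at 4.39% and 0.783%. In the low class it was found at 1 of 658 and 7 of 6713 starts, too few to compare. The NRF1 site, searched as CGCATGCGC and present at 2.1% of all starts, stood at 5.57% and 1.92% in the high class. The ZNF143 site, searched as ACTACAATT and present at 0.47% of all starts, was found at 79 starts with a promoter peak and at 24 with no peak. The TATA box was less common with a promoter peak in each class, at 12.8% against 24.4% in the low class and 4.9% against 6.76% in the high class. Within 500 bp on each side of the start this did not hold for the high class, where the TATA box stood at 16.9% against 15.9%.

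**Figure D5:**
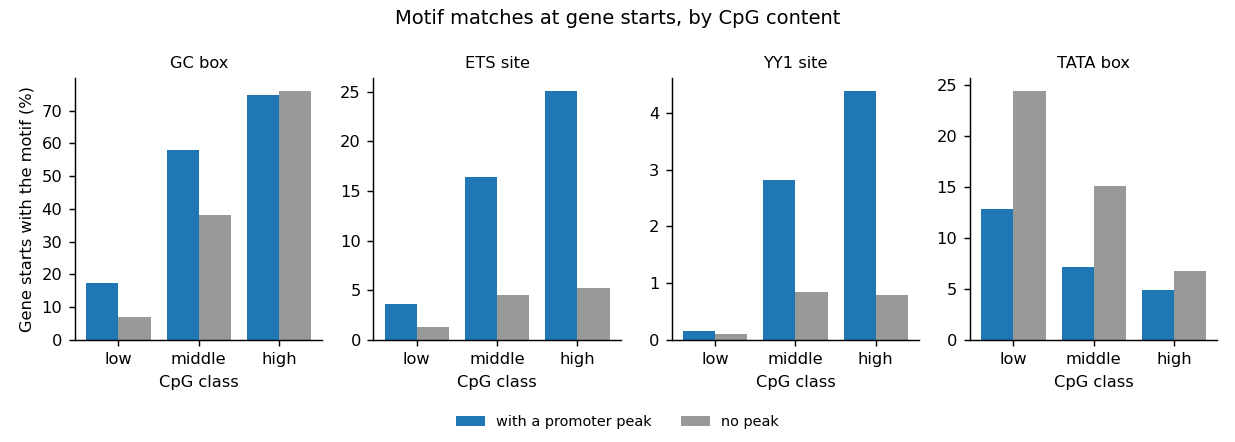
Share of gene starts with a motif match (y axis, percent, on a scale of its own in each panel) in 3 classes of CpG content (x axis), with a promoter peak (blue) and with no peak (grey). In the window from 250 bp before to 50 bp after the start, the ETS site is more frequent with a promoter peak in every class and the TATA box less frequent, the GC box is at 74.8% and 76% in the high class, and the YY1 site rests on 1 start with a peak in the low class.

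Motifs of B lineage and red cell factors were also counted. The EBF1 site, searched as TCCCNNGGG, was present at 7.5% of starts with a promoter peak, 6.83% with no peak and 7.15% of all starts, but within 500 bp on each side of the start at 25.5% against 18.3%. In the high class it stood at 7.52% against 10.6%, and within 500 bp on each side at 26.8% against 28.5%. The RUNX site, searched as TGTGGTT, was present at 3.62% and 6.42%, beside 5.15% of all starts, but in the low class it stood at 7.9% against 8.34%. In the high class the RUNX site stood at 2.61% against 1.35%. The octamer, searched as ATTTGCAT and bound by the Pou2f factors, was present at 1.18% and 2.07%, beside 1.73% of all starts. The GATA site of red cell factors, searched as AGATAAG, was present at 1.76% and 3.51%, beside 2.74% of all starts, and in the low class at 5.02% against 4.53%, which became 11.9% against 12.5% within 500 bp on each side of the start. Among motifs of general factors, the E box, searched as CACGTG, was present at 10.6% and 5.5%, beside 7.79% of all starts, and in the high class at 11.8% against 11.2%. The cAMP response element, searched as TGACGTCA, was present at 3.68% and 1.25%, beside 2.33% of all starts.

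Across chromosomes, the share of protein-coding starts with a promoter peak ranged from 51.7% on chromosome 11 to 29.6% on the X chromosome, leaving aside the Y chromosome with 4 of 17 starts. Chromosome 7 (34.9%) holds many olfactory and vomeronasal receptor genes, and without these its share was 43.1%. Without them the X chromosome stayed lowest of these at 29.9%, and all chromosomes together stood at 46.3%. Genes that do not code for proteins also started at promoter peaks, with 393 of 1273 lincRNA starts (30.9%) within reach of one but only 70 of 5201 pseudogene starts (1.3%). Immunoglobulin gene segments are not classed as protein-coding in the annotation, so peaks at their starts were counted with the promoter-distant or longest peaks by definition, and 7 of 355 V segment starts lay at promoter-distant peaks. A promoter-distant peak was present within 10 kb of 1598 promoter peaks (18.8%). The annotation set the boundary with the distant peaks, since 825 of the 8528 were within reach of a protein-coding transcript start other than a gene start, and 417 of 12168 gene records with no peak at the gene start had one at such a start.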

How the data were processed

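The library was an H3K27ac ChIP-seq sample of sorted bone marrow pro-B cells. The authors deposited a list of 17935 non-overlapping peaks on mm9 with a score of 0 for every peak. The peak caller, its threshold and the sequencing depth are not given in the sources used here. A minimum fold enrichment may have been applied, as an undefined abbreviation in the name of the deposited list may mean, so that a start with no peak is one with no listed region. The submitters' processing notes for the series name Bowtie 1.0, which the study's methods give as the aligner of other ChIP-seq data to mm9. Its use for this library is not stated. Peak borders, and with them all lengths, are those of the deposited list.

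Peak starts and ends were taken from the deposited list and compared with gene starts of GENCODE vM1 on NCBIM37, which is mm9, and with its sequence. Peaks with a length below the 95th percentile (7800.3 bp) and within 1000 bp of a protein-coding gene start were taken as promoter peaks. Genes were counted by symbol (22238), and base composition and motifs by start, in a window from 250 bp before to 50 bp after it and, as an alternative, of 500 bp on each side. The members, the gene lists and the motifs were chosen with earlier results of these data known. Any member of the lists could be named, and of lists made by a name pattern the first 3 genes in alphabetical order with and without a peak, beside the longest and shortest peaks and those at the limits. The second red cell list and the symbol stems were chosen after the data were seen. The NRF1, YY1, EBF1 and ZNF143 motifs were shortened to 9 letters after longer forms had been counted. A few listed genes are not reported here by name. No test was made, since 1 library has no replicates. The assignment was tested on 2000 simulated peaks, of which all 1012 within reach were recovered and 0 were wrongly called. Python 3.11.15 with numpy 2.4.6, pandas 2.3.3 and matplotlib 3.10.9 was used.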

Additional observations from a re-analysis of the deposited data

How the results depend on the processing

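The number of promoter peaks stayed within 1.5 times of 8510 under all alternatives, from 7487 with the peak centre in place of its edge to 9316 with all protein-coding transcript starts. The share of protein-coding genes with a promoter peak (43.5%) was 44.2% with 2000 bp in place of 1000 bp, 41.4% and 45.2% with the 90th and 99th percentile as length limit, 45.8% with no limit, 37.9% with the peak centre and 45.2% with all transcript starts. The median length of 2368 bp became 2304, 2421 and 2437 bp with these length limits in the same order, and 2303 bp for peaks near exactly 1 gene start. The share of peaks covering a start was 96.4% with transcript starts and 94.6% for peaks near exactly 1 start. The median CpG ratio of starts with a peak was 0.76 in a window of 500 bp on each side. Early B cell genes stood at 74.4% with no length limit and at 79.5% with any peak at any transcript start, the latter chosen after seeing the data. Of 25 lists, 5 left the 95% binomial interval of their own share with no length limit and none with 500 or 2000 bp, an interval that is wide for small lists. The difference in motif share, with minus without a promoter peak, turned its sign within classes of CpG content for 8 motifs, in percentage points: in the high class the GC box (-1.24), EBF1 site (-3.09), RUNX site (1.26) and GATA site (0.32), and in the low class the NF-Y box (-5.29), the GATA site (0.49), the cAMP response element (-0.62), the NRF1 site (-0.03) and the ZNF143 site (-0.22). The last 3 are too few to compare. Of 658 low-class starts with a promoter peak, 1 held the cAMP response element and 0 held the NRF1 or the ZNF143 site. Of 6713 with no peak, 52, 2 and 15 did, in the same order. Within 500 bp on each side, over all starts, the NF-Y box (-7.92) turned its sign and no other motif did. Whether CpG content sets these differences was not tested. No paired analysis was possible because there was 1 library and no test. The unknown depth limits any statement on starts with no peak, which had no region called at the authors' threshold and may still carry H3K27ac.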
